A study of Mus musculus with 18 samples.

Results

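The 26 genes described here carry GABA and glycine signalling, from synthesis of the transmitter to the receptors and the chloride gradient. They were taken by gene symbol, and each of the 26 was found once among the 55335 genes measured. The forebrains of mouse embryos at embryonic day 14 (E14) were dissected, and the RNA of their fixed nuclei was sequenced after tagging over several rounds of pooling and splitting, so that each nucleus carried its own barcode. The embryos carried the MYT1L S710fsX allele, a frameshift in the gene of a neuronal transcription factor, on a C57BL/6 background. They came from 3 litters of Het parents. The authors describe them as of mixed sexes, but Xist RNA was found only in a wild type animal (below). The allele is a germline one, so all cell types carry it. The comparison covered 3 wild type (WT) embryos with no mutant allele, 3 heterozygous (Het) embryos with a single mutant copy and 3 homozygous mutant (KO) embryos, none of them treated. Each embryo was measured in 2 runs, which were summed, so the animal was the replicate (n = 3 per genotype). The titles gave the genotypes, while the separate genotype tag read WT for all 9 libraries of run 1, which goes against their titles.

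GABA is made from glutamate by the glutamate decarboxylases GAD67 (Gad1) and GAD65 (Gad2), is loaded into vesicles by the transporter VGAT (Slc32a1), which also loads glycine, and is cleared by uptake and breakdown. It opens GABA-A receptors, chloride channels built of 5 subunits, and acts more slowly through GABA-B receptors, which are pairs of Gabbr1 and Gabbr2 coupled to G proteins. Glycine receptors are related chloride channels. In the embryonic forebrain the chloride importer NKCC1 (Slc12a2) keeps chloride high inside neurons, so that GABA tends to depolarise them, until the exporter KCC2 (Slc12a5) rises with maturation.

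Of 194590 nuclei kept, 58326 were excitatory neuron-like and fell into 6 clusters, and 52703 were inhibitory neuron-like and fell into 9 clusters. The clusters were built without the 26 genes and without a list of 41 further pathway genes. They were named from marker genes that do not include Gad1 or Gad2, by a rule set after marker values had been seen. The 9 inhibitory clusters were 2 like the medial ganglionic eminence (MGE; clusters 0 and 3), 1 like the caudal ganglionic eminence (CGE; cluster 17), 1 like direct-pathway striatal neurons (D1; cluster 6), 1 like indirect-pathway striatal neurons (D2; cluster 18) and 4 named here by a leading gene (Ecel1, cluster 4; Prdm12, cluster 5; Gbx1, cluster 8; Aldh1a3, cluster 16). The 6 excitatory clusters were 2 like migrating and upper-layer neurons (clusters 20 and 25), 2 like deep-layer neurons (clusters 22 and 23) 1 named by a leading gene (Tafa1, cluster 26) and 1 given by its number alone (cluster 21). Levels are CPM, the counts of a gene over the summed nuclei of a class or cluster with every animal scaled to the same total count. In such sums, fewer nuclei that carry a gene and less RNA of it per nucleus cannot be told apart.

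The summed counts per animal ran from 42860745 in KO 1 to 73841130 in WT 2, and the median nucleus held 2112 to 3306 UMIs in the excitatory and 1919 to 2931 in the inhibitory class. Myt1l RNA, the gene that carries the frameshift, was not lower in the mutants. In excitatory neuron-like nuclei its level was 1930 to 2207 CPM for WT, against 2209 to 2458 for Het and 2509 to 2814 for KO animals, and in inhibitory ones 1452 to 1516, 1569 to 1645 and 1684 to 1874 CPM for the same genotypes. WT 3 was the only animal with Xist RNA (267 CPM in the excitatory class, against 0.807 at most in the other 8), which bears on the X-linked members Gabra3 and Glra2. Every Het and KO animal was among those 8, so sex was tied in part to genotype and the 2 cannot be fully told apart. Across the runs and animals kept, 157 barcodes were shared within an animal and 1717 between animals, and all were kept.

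Promoter windows, taken from RefSeq on GRCm38, were found for 23 of the 26 genes. The 5-base core AAGTT bound by MYT1-family zinc fingers, searched on both strands (AAGTT or AACTT) in the 250 bases before each start, was present for 5 of 23 members (21.7%) and in 11607 of 32851 windows overall (35.3%). Such a match describes letters and is no sign of binding. In KO, 7 members passed the test in a neuron class or cluster with the replicate number as a block, and 3 also without it (below). With the block, 6.27% of all genes passed in the excitatory and 0.717% in the inhibitory class. Of all gene and cluster pairs, 1.51% passed with the block and 0.481% without it. The share of all genes that passed in any of these fits was not counted, so the 7 are not read as an excess. Of the 7, the core was held by Slc12a5, Gabra5 and Gabra3. The stretches before Slc12a5 (chr2:164960596-164960801, plus strand, cut where the annotated gene begins) and Gabra5 (chr7:57510060-57510309, minus strand) are shown. Both genes were called lower in KO excitatory neuron-like nuclei, only with the block. The one before Glra2 (chrX:165327394-165327643, minus strand) is shown because Glra2 was called higher in KO inhibitory neuron-like nuclei, again only with the block. All are written 5′ to 3′ in the direction of the gene, and capitals mark the searched core.
Slc12a5: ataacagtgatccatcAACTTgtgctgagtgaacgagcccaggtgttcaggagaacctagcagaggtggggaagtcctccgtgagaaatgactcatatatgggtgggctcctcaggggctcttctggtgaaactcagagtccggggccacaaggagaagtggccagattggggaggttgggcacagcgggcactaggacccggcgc
Gabra5: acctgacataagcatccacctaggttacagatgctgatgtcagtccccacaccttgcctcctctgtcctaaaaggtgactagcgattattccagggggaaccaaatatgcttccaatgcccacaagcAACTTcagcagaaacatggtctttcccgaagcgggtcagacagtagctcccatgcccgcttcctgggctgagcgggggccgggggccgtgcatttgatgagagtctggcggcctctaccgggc
Glra2: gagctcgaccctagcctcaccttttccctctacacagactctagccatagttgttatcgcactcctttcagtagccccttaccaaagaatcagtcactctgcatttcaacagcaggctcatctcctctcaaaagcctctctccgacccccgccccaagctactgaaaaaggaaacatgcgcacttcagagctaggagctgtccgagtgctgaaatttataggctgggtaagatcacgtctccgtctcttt
The Glra2 stretch holds no match in these 250 bases. The match for Gabra3 lies inside the annotated gene and is not printed.

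In WT animals the genes that make and load GABA were far higher in inhibitory than in excitatory neuron-like nuclei. Gad1 stood at 454 ± 17.1 CPM (SD, n = 3) in the inhibitory and 5.09 ± 0.944 CPM in the excitatory class, 89.1 times as much. Gad2 stood at 1229 ± 50.9 and 17.3 ± 4.17 CPM (70.9 times) and Slc32a1 at 56.5 ± 8.79 and 2.43 ± 1.49 CPM (23.3 times). Outside the inhibitory lineage, Gad1 held 1.12% of its inhibitory level in excitatory neuron-like nuclei. The share was 1.57% in nuclei of the radial glia-like class. In mixed microglia and vascular nuclei it held 2.83%, from 18 counts over all 9 animals and with 0, 7.13 and 31.4 CPM in WT 1 to 3. Inhibitory progenitor-like nuclei already held 54.8% of the inhibitory Gad1 level, 87.6% of the Gad2 level and 84.7% of the Slc32a1 level. Such differences between clusters of these same nuclei are given as a description, with no test.

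The inhibitory clusters differed among themselves in Gad1 more than in Gad2. Gad1 ran from 204.5 ± 24.7 CPM in the D1-like cluster 6 and 231 ± 14.7 CPM in cluster 4 to 751 ± 20.3 CPM in the MGE-like cluster 3, a range of 3.67 times. Gad2 spanned only 1.6 times, from 1006 ± 29.3 CPM in cluster 4 to 1606 ± 99.7 CPM in cluster 16. Slc32a1 spanned 2.25 times and was highest in cluster 3 as well (82.1 ± 14.7 CPM).

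Clearance genes were low in neurons, with one exception. Abat, the GABA transaminase that starts the breakdown of GABA, was higher in inhibitory (100.1 ± 3.98 CPM) than in excitatory neuron-like nuclei (8.74 ± 1.02 CPM, 11.4 times). It reached 167 ± 2.75 CPM in cluster 3. Outside these classes it followed the Gad genes only in part. In inhibitory progenitor-like nuclei, where the Gad genes were high too, it stood at 75.3 ± 5.76 CPM. Abat stood at 76.1 ± 8.53 CPM in Cajal-Retzius-like and 28.2 ± 1.46 CPM in excitatory intermediate progenitor-like nuclei. Gad1 held only 1.53% and 1.47% of its inhibitory level there. Aldh5a1, which completes the breakdown to succinate, differed by only 1.6 times (8.33 ± 0.311 against 5.20 ± 0.419 CPM). The GABA transporter GAT-3 (Slc6a11) was highest in radial glia-like nuclei, at 23.7 CPM, against 3.42 ± 0.864 CPM in inhibitory and 2.76 ± 0.201 CPM in excitatory neuron-like nuclei. Among the inhibitory clusters the D2-like cluster 18 stood apart with 14.6 ± 5.89 CPM. Slc6a13, the transporter GAT-2, was below 1 CPM in both neuron classes.

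Between the excitatory and inhibitory classes, GABA-A subunits split into those that were shared and those that were mostly inhibitory. The γ subunits Gabrg1 and Gabrg3 were 13.9 and 12.7 times higher in inhibitory neuron-like nuclei (37.6 ± 5.35 and 279 ± 6.59 CPM) than in excitatory ones (2.70 ± 0.499 and 21.96 ± 2.21 CPM). Outside these classes, Gabrg3 was higher still in Cajal-Retzius-like nuclei (668 ± 41.6 CPM), while Gabrg1 was low there (4.53 ± 0.654 CPM). The α2 subunit Gabra2 did not separate the classes, at 313 ± 21.9 CPM in inhibitory and 323 ± 19.7 CPM in excitatory neuron-like nuclei. The β2 subunit Gabrb2 lay at 279 ± 12.9 and 180.1 ± 15.8 CPM, and the α3, α4, α5 and β1 genes (Gabra3, Gabra4, Gabra5, Gabrb1) were between 1.69 and 2.58 times higher in the inhibitory class. Gabrd, the δ subunit of receptors outside synapses, was near the detection limit, with 1.12 ± 0.561 and 0.38 ± 0.208 CPM in the excitatory and inhibitory classes.

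Within each class the subunits varied far more than the Gad genes. The deep-layer-like clusters 22 and 23 were near opposites. Cluster 22 had the most Gabrb2 (431 ± 28.4 CPM), Gabra3 (63.8 ± 7.03) and Gabra5 (38.5 ± 2.88) of the excitatory clusters and the least Gabra2 (75.7 ± 10.4). Cluster 23 had the most Gabra2 (814 ± 111), Gabra4 (37.9 ± 7.02) and Gabrb1 (204 ± 24.7), a pair of genes that overlap in the annotation and may share reads, while its Gabrb2 level was 96.7 ± 8.47 CPM. Cluster 20, like migrating and upper-layer neurons, was lowest for Gabra3 (7.07 ± 1.88), Gabra5 (1.48 ± 0.318), Gabrb1 (11.8 ± 1.14) and Gabrb2 (39.9 ± 6.10) but held 368 ± 11.2 CPM of Gabra2. On the inhibitory side the Ecel1-led cluster 4 was highest for Gabra2 (583 ± 48.8), Gabra3 (139 ± 18.1), Gabra5 (49.7 ± 4.23), Gabrb1 (414 ± 53.7), Gabrg1 (103 ± 18.5) and Gabrg3 (460.4 ± 29.9). The Gbx1-led cluster 8 carried the highest Gabrb2 level of all 15 clusters, 939 ± 84.0 CPM.

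**Figure D1:**
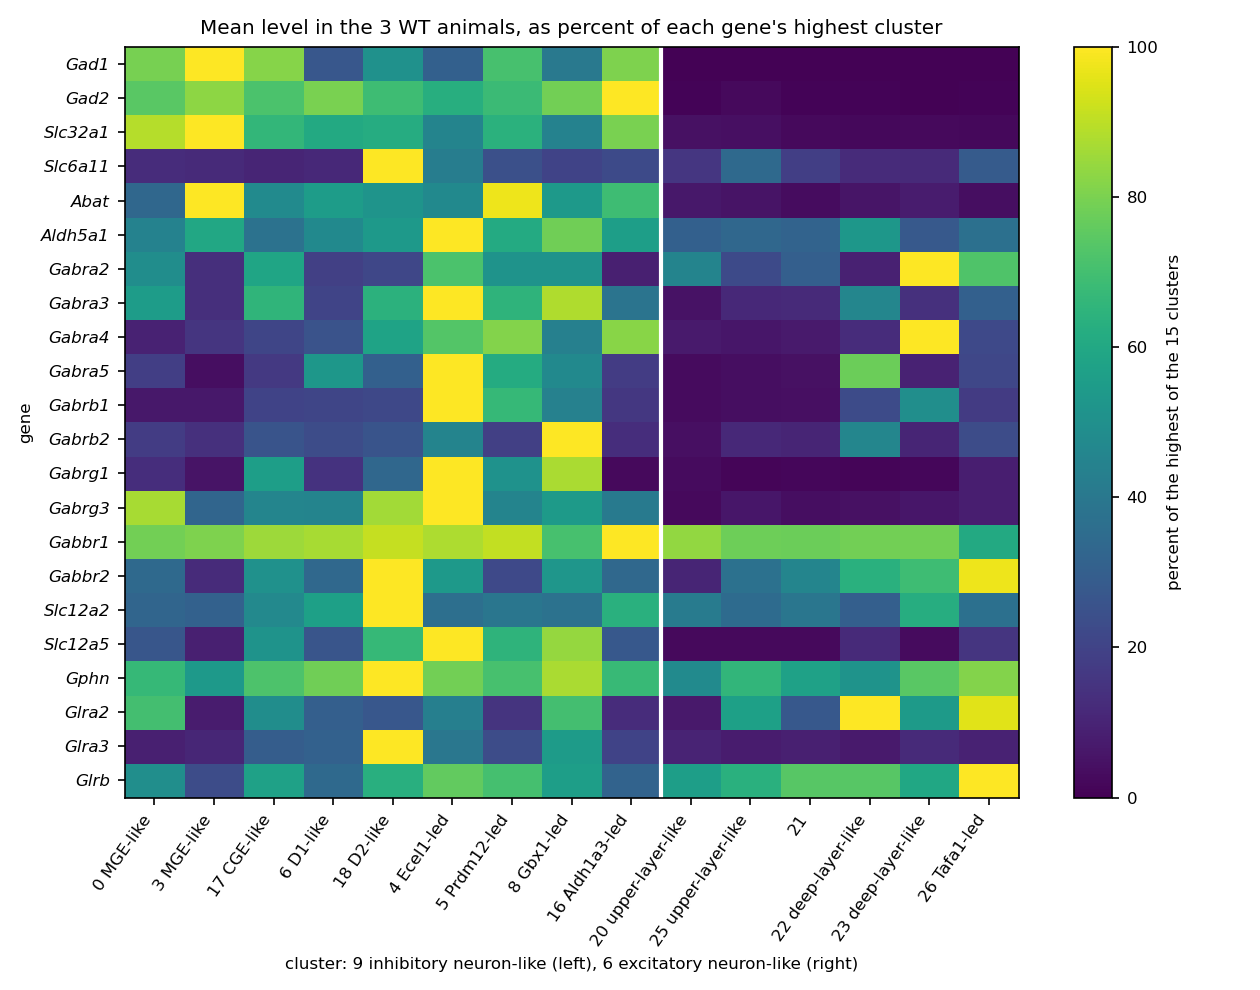
Mean level in the 3 WT animals of the 22 genes that reach 5 CPM in at least one neuron cluster (rows), in the 9 inhibitory (left) and 6 excitatory (right) neuron-like clusters (columns), coloured as the percent of each gene's highest cluster. Gad1, Gad2, Slc32a1, Abat, Gabrg1 and Gabrg3 are bright on the left only, while Gabra2, Gabrb2, Gabbr2 and Glra2 change from cluster to cluster on both sides.

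GABA-B subunits and the chloride transporters showed the same contrast of even and uneven genes. Gabbr1, the subunit that binds GABA, was even: 152.6 ± 5.08 CPM in inhibitory and 138 ± 5.14 CPM in excitatory neuron-like nuclei, with a range over clusters of 1.41 and 1.38 times. Gabbr2, the subunit that couples to the G protein, ranged 8.22 and 9.34 times and reached 155 ± 16.2 CPM in the D2-like cluster 18 and 150.6 ± 17.7 CPM in the Tafa1-led cluster 26. Slc12a5 was 7.4 times higher in inhibitory neuron-like nuclei (48.6 ± 8.92 against 6.57 ± 2.67 CPM) and was highest in cluster 4 (103 ± 14.1 CPM) and, among excitatory clusters, in cluster 26 (16.02 ± 4.86 CPM). The excitatory value of this scarce gene moved by 1.6 times when nuclei were clustered with the members included. Slc12a2 was similar in inhibitory and excitatory neuron-like nuclei (98.6 ± 1.31 and 83.6 ± 5.50 CPM) and higher in radial glia-like nuclei (177 CPM) and in mixed microglia and vascular nuclei (616 CPM). Gphn, which encodes the scaffold gephyrin that anchors GABA-A and glycine receptors, varied least of the receptor-side genes in excitatory clusters after Gabbr1 and Glra3, by 1.7 times (518 ± 35.7 CPM in the class).

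Of the glycine receptor genes, the embryonic α2 subunit Glra2 was higher in excitatory (184 ± 17.3 CPM) than in inhibitory neuron-like nuclei (129.8 ± 1.46 CPM). It was highest in clusters 22 (338 ± 17.98) and 26 (323 ± 8.85) and low in cluster 20 (23.1 ± 5.87). The α3 gene Glra3 was rarer, 7.43 ± 0.471 CPM in the inhibitory class, with its peak in the D2-like cluster 18 (24.7 ± 7.09 CPM). The β subunit Glrb lay at 56.0 ± 5.23 CPM in excitatory and 39.6 ± 5.40 CPM in inhibitory neuron-like nuclei. The glycine transporters Slc6a5 (GlyT2) and Slc6a9 (GlyT1) were at or below 2.04 CPM in both neuron classes, and Slc6a9 was highest in radial glia-like nuclei (9.08 CPM).

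To ask whether loss of MYT1L changes these genes in neurons, KO was compared with WT in each class by edgeR's quasi-likelihood test over all 9 animals. A gene was called at an adjusted p (Benjamini-Hochberg over all genes tested in the class) under 0.05 and a log2 change beyond 0.2. No member was called in either class: 0 of 24 tested in excitatory neuron-like nuclei, where 1.02% of all genes were called (0.627% higher, 0.392% lower), and 0 of 23 in inhibitory ones, where 0.0375% were, 0.0375% higher and 0.0% lower. At an unadjusted p under 0.05 there were 7 and 3 members, where 12.9% and 5.96% of all genes were. DESeq2 called 0 members in both, and 0.838% and 0.0552% of all genes. Same-numbered animals deviated from their genotype means together, so the fit was also made with the replicate number as a block. In the blocked fit 4 of 24 members were called in excitatory neuron-like nuclei (6.27% of all genes were, 3.27% higher and 3.0% lower), Gabra3 higher and Gabra5, Gabbr2 and Slc12a5 lower. In inhibitory neuron-like nuclei 2 of 23 were called (0.717% of all genes, 0.483% higher and 0.234% lower), Glra2 higher and Gabbr2 lower. The median log2 change of the tested members, without the block, was -0.071 in the excitatory and -0.08 in the inhibitory class, beside -0.007 over all genes in both. The excitatory median was -0.184 without KO 1, -0.036 without KO 2, 0.001 without KO 3 and -0.027 without WT 1. The inhibitory median was -0.141 without KO 1, -0.032 without KO 2, -0.047 without WT 2, -0.036 without WT 3 and 0.044 in run 1 alone, so no direction is read from either.

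**Figure D2:**
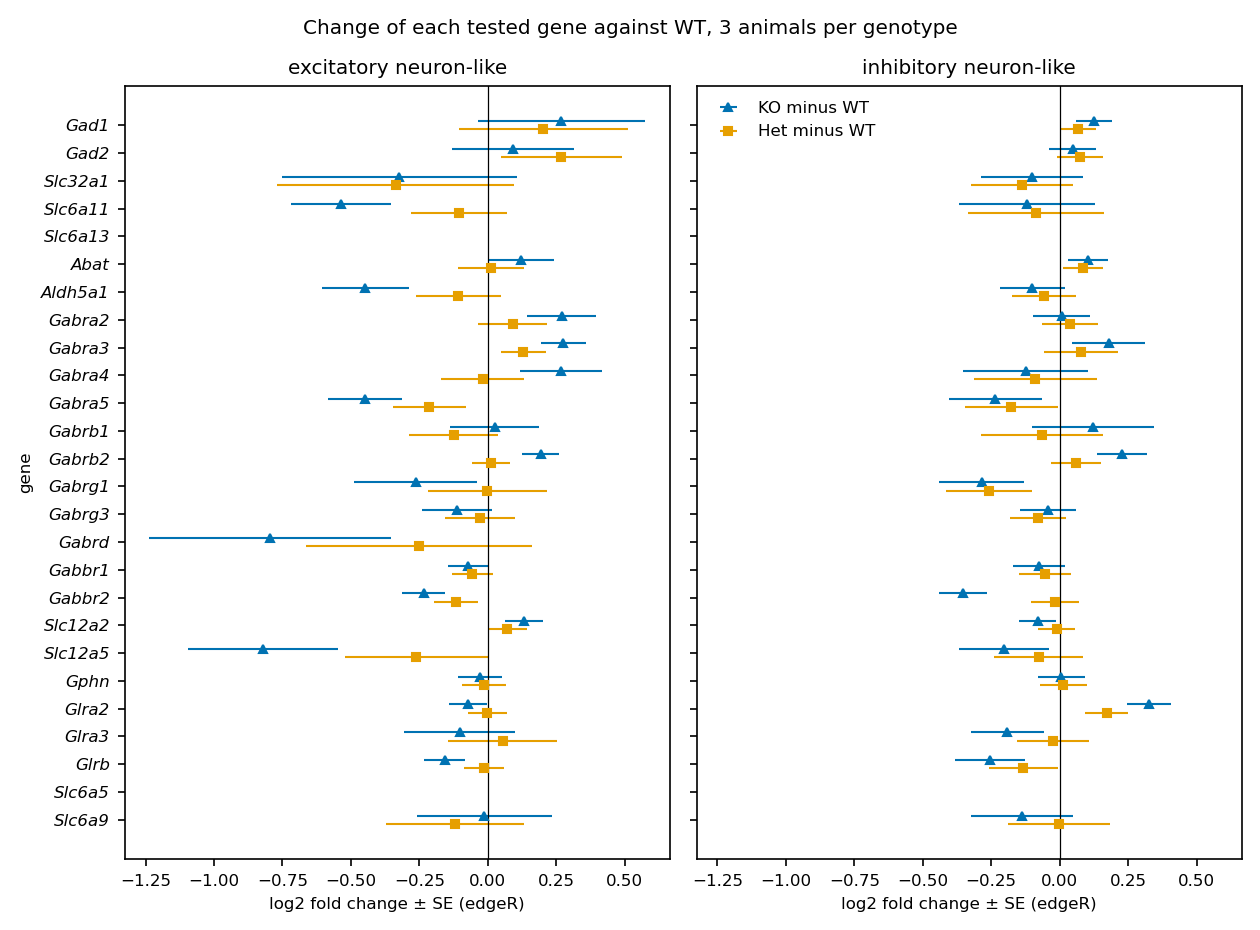
Log2 fold change of each tested gene in KO (triangles) and Het (squares) animals against WT, with its standard error (edgeR without a block, 3 animals per genotype), in excitatory (left) and inhibitory (right) neuron-like nuclei. Most points lie within 0.3 of 0. The farthest in KO excitatory nuclei are Slc12a5 (-0.82) and the scarce Gabrd (-0.80), and in KO inhibitory nuclei Gabbr2 (-0.35) and Glra2 (0.33) lie farthest out in either direction.

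Where 3 values are given for a genotype, they are those of animals 1 to 3 in that order. Slc12a5, the chloride exporter (ENSMUSG00000017740.17; GRCm38 chr2:164960802-164999731), had the largest fall of a member called in a class. In excitatory neuron-like nuclei WT 1 to 3 held 9.61, 4.61 and 5.48 CPM, Het 1 to 3 held 6.54, 4.87 and 4.60, and KO 1 to 3 held 4.84, 2.39 and 3.67. KO was below WT within every replicate number, and the ranges overlapped only because WT 2 lay below KO 1. The log2 change was -0.82 (SE 0.28, adjusted p = 0.207) without and -0.80 (SE 0.15, adjusted p = 0.00229) with the block. Without the block, leaving out WT 1, the highest animal, gave -0.48 (adjusted p = 0.491), and the other animals left out in turn gave -0.61 to -1.05. The blocked call was lost without the animals numbered 1 (adjusted p = 0.0588). Clusters 22 and 26, where Slc12a5 was highest among excitatory clusters, made up 33.2%, 28.8% and 29.4% of excitatory nuclei in WT 1 to 3 and 25.3%, 23.7% and 29.1% in KO 1 to 3. The part of this shift in the class-level value was not tested. The fitted change was -0.91 (SE 0.31) in cluster 22 and -0.86 (SE 0.28) in cluster 26, neither called without the block. In cluster 22 WT 1 to 3 held 16.9, 9.24 and 10.2 CPM, Het 12.8, 12.5 and 8.12, and KO 10.3, 5.38 and 4.64 (adjusted p = 0.155, and 0.0167 with the block, where leaving out any of the 3 replicate numbers ended the call). The summed level of 8 inhibitory marker genes in cluster 22 was 76.6 to 200.4 CPM in WT and 91.1 to 523 CPM in KO, highest in KO 1, and its part in the result was not tested. In inhibitory neuron-like nuclei Slc12a5 changed by -0.20 (SE 0.16, adjusted p = 0.924; 0.163 with the block), and its fitted change was negative in all 9 inhibitory clusters and in the 3 excitatory clusters where it could be tested, with 0 calls without the block. Clusters hold nuclei of the same 9 animals, so signs that agree over clusters, here and for the genes that follow, are a description and no separate evidence.

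The other chloride transporter showed no call. Slc12a2 was 77.3 to 87.4 CPM in WT and 90.0 to 90.4 CPM in KO excitatory neuron-like nuclei, a log2 change of 0.13 (SE 0.070, adjusted p = 0.47). In inhibitory ones it was at least 97.4 CPM in WT and 88.7 to 93.4 CPM in KO (-0.08, SE 0.067, adjusted p = 0.93). In both classes all KO animals were outside the WT range, above it in excitatory and below it in inhibitory nuclei. Such separation was found in 17% of genes tested in the excitatory and in 10.8% in the inhibitory class, and among members in 6 of 24 (2 above, 4 below) and 5 of 23 (2 above, 3 below).

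Gabbr2 (ENSMUSG00000039809.10; chr4:46662305-46991873) was lower in KO in both neuron classes in the blocked fit. In inhibitory neuron-like nuclei it measured 62.3, 62.5 and 58.3 CPM (WT), 56.4, 55.3 and 66.4 CPM (Het) and 50.8, 42.8 and 47.2 CPM (KO). Every KO animal lay below every WT and Het animal. The log2 change was -0.35 (SE 0.088, adjusted p = 0.403), and -0.36 (SE 0.077, adjusted p = 0.0398) with the block. In excitatory neuron-like nuclei it measured 72.6, 80.9 and 79.1 CPM (WT), 71.2, 64.0 and 77.3 CPM (Het) and 69.02, 59.4 and 66.4 CPM (KO). The KO animals again lay below WT, with Het spread across both ranges, and the change was -0.23 (SE 0.079, adjusted p = 0.208; with the block -0.24, SE 0.068, adjusted p = 0.0392). In each class the blocked call was lost without the animals numbered 2 and without those numbered 3. Its partner Gabbr1 did not pass in either neuron class or in any neuron cluster, with fitted changes of -0.25 to -0.005 over the 15 clusters.

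Among GABA-A subunits in excitatory neuron-like nuclei, Gabra3 (chrX:72432681-72656848) was higher and Gabra5 (chr7:57407672-57510059) lower in the blocked fit. Gabra3 measured 30.1, 26.2 and 30.9 CPM (WT), 29.1, 31.0 and 34.1 CPM (Het) and 33.0, 32.9 and 37.7 CPM (KO), so that KO lay above WT and Het overlapped both. Its log2 change was 0.28 (SE 0.083, adjusted p = 0.154; with the block 0.28, SE 0.064, adjusted p = 0.0136), and 0.32 (SE 0.096) without WT 3, the animal with Xist. Gabra5, found in the receptors outside synapses that give tonic inhibition, measured 14.2, 10.5 and 11.0 CPM (WT), 11.2, 8.18 and 10.9 CPM (Het) and 7.80, 8.41 and 9.19 CPM (KO), with KO below WT. The change was -0.45 (SE 0.14, adjusted p = 0.157; with the block -0.44, SE 0.11, adjusted p = 0.0222). Cluster 22, the excitatory cluster with the most Gabra5, made up 20.7%, 19.5% and 18.4% of excitatory nuclei in WT 1 to 3. In KO 1 to 3 it made up 15.7%, 17.6% and 19.5%, and the part of this in the class-level change was not tested. Gabra5 overlaps other annotated genes, so its reads may not be fully separable from theirs. The blocked calls were lost without replicate numbers 2 or 3 for Gabra3 and without 1 or 2 for Gabra5. Of the other 7 GABA-A genes tested none was called. Gabrb2 came close with 169 to 198 CPM in WT and 186 to 216 CPM in KO, where the blocked adjusted p was 0.0216 but the log2 change of 0.19 (SE 0.049) stayed under the size asked for. Gabra2 was 302 to 340.5 CPM in WT and 298 to 468 CPM in KO (0.27, SE 0.13, adjusted p = 0.39), and without KO 3, the lowest KO animal, its change was 0.44 (SE 0.081, adjusted p = 0.0259). Cluster 23, the excitatory cluster with the most Gabra2, made up 9.31%, 8.34% and 8.84% of excitatory nuclei in WT 1 to 3. In KO 1 to 3 its share was 14.1%, 9.29% and 9.31%. Cluster 22, whose shares are given above, had the least Gabra2. The part of these shares in the class-level Gabra2 change was not tested.

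Glra2 (ENSMUSG00000018589.8; chrX:165129017-165327393) was higher in KO inhibitory neuron-like nuclei in the blocked fit. It measured 130.6, 130.8 and 128.2 CPM (WT), 140.6, 144.7 and 146.6 CPM (Het) and 179.0, 151.2 and 148.2 CPM (KO). The genotypes did not overlap, with Het between WT and KO. The log2 change in KO was 0.33 (SE 0.080, adjusted p = 0.387; with the block 0.32, SE 0.067, adjusted p = 0.034), and 0.32 (SE 0.096) without WT 3. Without the animals numbered 1 or 2 the blocked call was lost. In excitatory neuron-like nuclei the values overlapped, at 166 to 201 CPM in WT and 158 to 183 CPM in KO (-0.07, SE 0.070, adjusted p = 0.746). Clusters 22 and 26, where Glra2 was highest, made up 33.2%, 28.8% and 29.4% of excitatory nuclei in WT 1 to 3. Their share was 25.3%, 23.7% and 29.1% in KO 1 to 3, and its part in this class-level value was not tested. In the Cajal-Retzius-like class Glra2 measured 54.6, 56.2 and 56.4 CPM (WT), 58.2, 77.4 and 82.8 CPM (Het) and 78.6, 89.6 and 92.96 CPM (KO). The KO animals lay above WT there too, and the change of 0.65 (SE 0.18) did not pass (adjusted p = 0.125; 0.0589 with the block). The other glycine receptor genes, Glra3 and Glrb, had fitted changes of -0.10 and -0.16 in excitatory and -0.19 and -0.26 in inhibitory neuron-like nuclei, none of which passed.

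**Figure D3:**
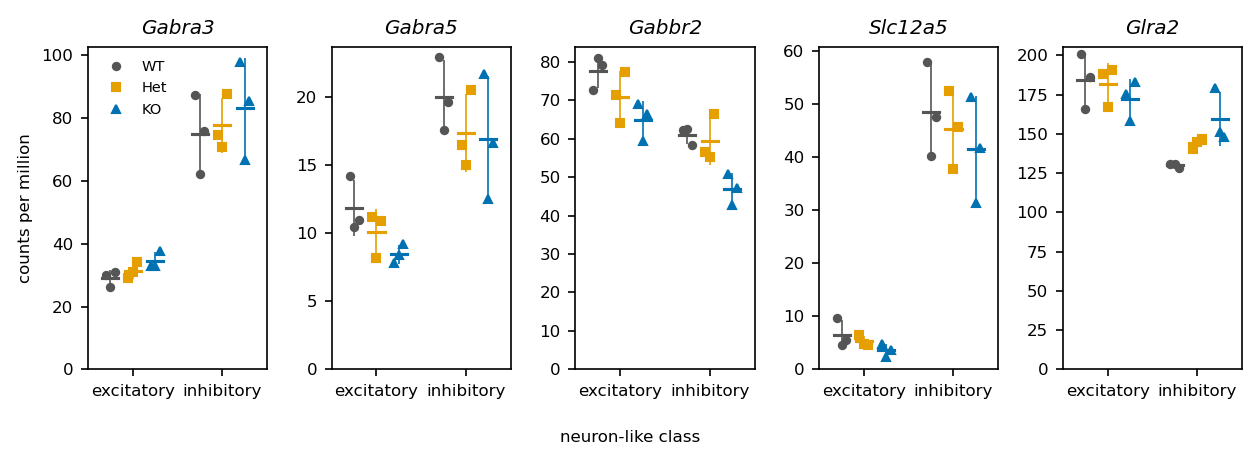
Level in CPM in each animal (points), with the mean and SD (bars), of the 5 genes called in a neuron class in the blocked fit, by class and genotype. The KO points of Gabbr2 lie below WT in both classes, those of Glra2 lie above WT in the inhibitory but not in the excitatory class, and Slc12a5 and Gabra5 are low in KO excitatory neuron-like nuclei.

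The KO change was compared between classes by an interaction term over 25 members. None was called at an adjusted p under 0.05 (0.109% of all genes were), and 5 had an unadjusted p under 0.05, as did 6.26% of all genes. The smallest p was that of Glra2, whose change was lower in excitatory than in inhibitory neuron-like nuclei by a log2 difference of -0.38 (SE 0.088, adjusted p = 0.189). Slc12a5 differed by -0.60 (SE 0.16, adjusted p = 0.302), Gabra2 by 0.26 (SE 0.074, adjusted p = 0.356), Slc12a2 by 0.22 (SE 0.059, adjusted p = 0.29) and Gabra4 by 0.40 (SE 0.15, adjusted p = 0.602). For Gabbr2 and Gabrb2 the differences were 0.13 (SE 0.065) and -0.02 (SE 0.063). Without KO 3, Glra2 (-0.48, SE 0.085) and Gabra2 (0.35, SE 0.062) both reached an adjusted p of 0.046. With all 9 animals, a change in one class and not in the other is therefore not shown for these genes. The shares of the excitatory clusters differed between animals, and their part in the class differences of Gabra2, Glra2 and Slc12a5 was not tested.

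Fits within single clusters gave calls that the classes did not. Of 293 pairs of a member and a neuron cluster tested in KO, 6 were called, 4 higher and 2 lower (0.481% of all gene and cluster pairs were called), in 3 members. With the block 13 of 296 were called, 6 higher and 7 lower, in 7 members (1.51% of all pairs). At an unadjusted p under 0.05 there were 47 and 70 pairs, where 7.78% and 10.7% of all pairs were. The adjustment was made within each cluster, as in the classes. In the clusters with a called member, the share of all genes called was 0.34% in cluster 0, 1.75% in cluster 21, 2.45% in cluster 22, 0.0609% in cluster 25 and 1.42% in cluster 26. With the block it was 1.41%, 5.25%, 7.28%, 0.521% and 2.9% in these, and 0.739% in cluster 8.

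Gabrb2 (ENSMUSG00000007653.12; chr11:42419757-42629028) was higher in KO in 3 of the 6 excitatory clusters. In cluster 21 it measured 103.7, 94.1 and 96.3 CPM (WT), 118.9, 130.1 and 119.9 CPM (Het) and 171, 132 and 149 CPM (KO). All 3 Het animals lay between the WT and the KO animals. The KO change was 0.64 (SE 0.09, adjusted p = 0.000965; with the block 8e-06), and it was called in 9 of 9 fits that left out an animal (0.55 to 0.72), the only member and cluster pair for which that held. In the upper-layer-like cluster 25 the values were 105.0, 110.4 and 104.9 CPM in WT, 119.8, 132.0 and 125.7 in Het, and 176, 157.5 and 139 in KO, again in that order with no overlap. The change was 0.58 (SE 0.10, adjusted p = 0.0304), and 4 of 9 such fits kept the call, which was lost without KO 1, KO 2 or any WT animal. In the Tafa1-led cluster 26 they were 235, 209 and 214 CPM in WT, 239.9, 224 and 274 in Het, and 351, 281 and 287 in KO. KO lay above the rest while Het and WT overlapped, with a change of 0.51 (SE 0.10, adjusted p = 0.0161) that was lost without KO 1, WT 2 or WT 3. With the block all 3 calls held without any one replicate number.

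In inhibitory clusters Gabrb2 passed once, in the blocked fit of the MGE-like cluster 0, where it measured 178, 155 and 167 CPM (WT), 170.1, 179 and 187 CPM (Het) and 256, 198 and 203 CPM (KO) (0.43, SE 0.10, adjusted p = 0.0923; with the block 0.00928, lost without replicate number 2). The KO animals lay above all others. The fitted change of Gabrb2 was positive in all 15 clusters, from 0.07 in cluster 5 to 0.64 in cluster 21. The change was small where Gabrb2 was most abundant: 0.09 (SE 0.089) in cluster 8 and 0.14 (SE 0.079) in cluster 22.

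Gabbr2 was lower in KO in the MGE-like cluster 0 and the deep-layer-like cluster 22. In cluster 0 it measured 53.0, 53.3 and 51.5 CPM (WT), 52.3, 46.8 and 59.6 CPM (Het) and 37.5, 26.5 and 34.1 CPM (KO), with every KO animal below the rest. The change was -0.68 (SE 0.14, adjusted p = 0.0303; with the block 0.00314), lost without KO 2, KO 3 or any WT animal. In cluster 22 it measured 87.7, 108 and 98.7 CPM (WT), 84.4, 93.3 and 79.8 CPM (Het) and 69.8, 66.4 and 67.5 CPM (KO). KO lay below the rest and Het overlapped WT, and the change was -0.52 (SE 0.10, adjusted p = 0.0154; with the block 0.000395), lost without KO 2, KO 3, WT 2 or WT 3. The block added 2 clusters. In the Gbx1-led cluster 8 WT held 75.1, 83.3 and 85.1 CPM, Het 57.7, 75.6 and 92.4, and KO 51.8, 49.2 and 60.0 (-0.55, SE 0.16, adjusted p = 0.192; with the block 0.0329, lost without any one replicate number). In cluster 21 WT held 62.4, 72.7 and 75.6, Het 60.2, 58.2 and 75.3, and KO 60.6, 51.5 and 53.9 CPM (-0.34, SE 0.11, adjusted p = 0.175; with the block 0.0408, lost without replicate number 2 or 3). The fitted change was negative in 14 of 15 clusters. The exception was the deep-layer-like cluster 23, where KO lay above WT (124 ± 9.64 against 106.8 ± 7.65 CPM) with a change of 0.23 (SE 0.11, adjusted p = 0.703), beside the -0.52 of the other deep-layer-like cluster.

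**Figure D4:**
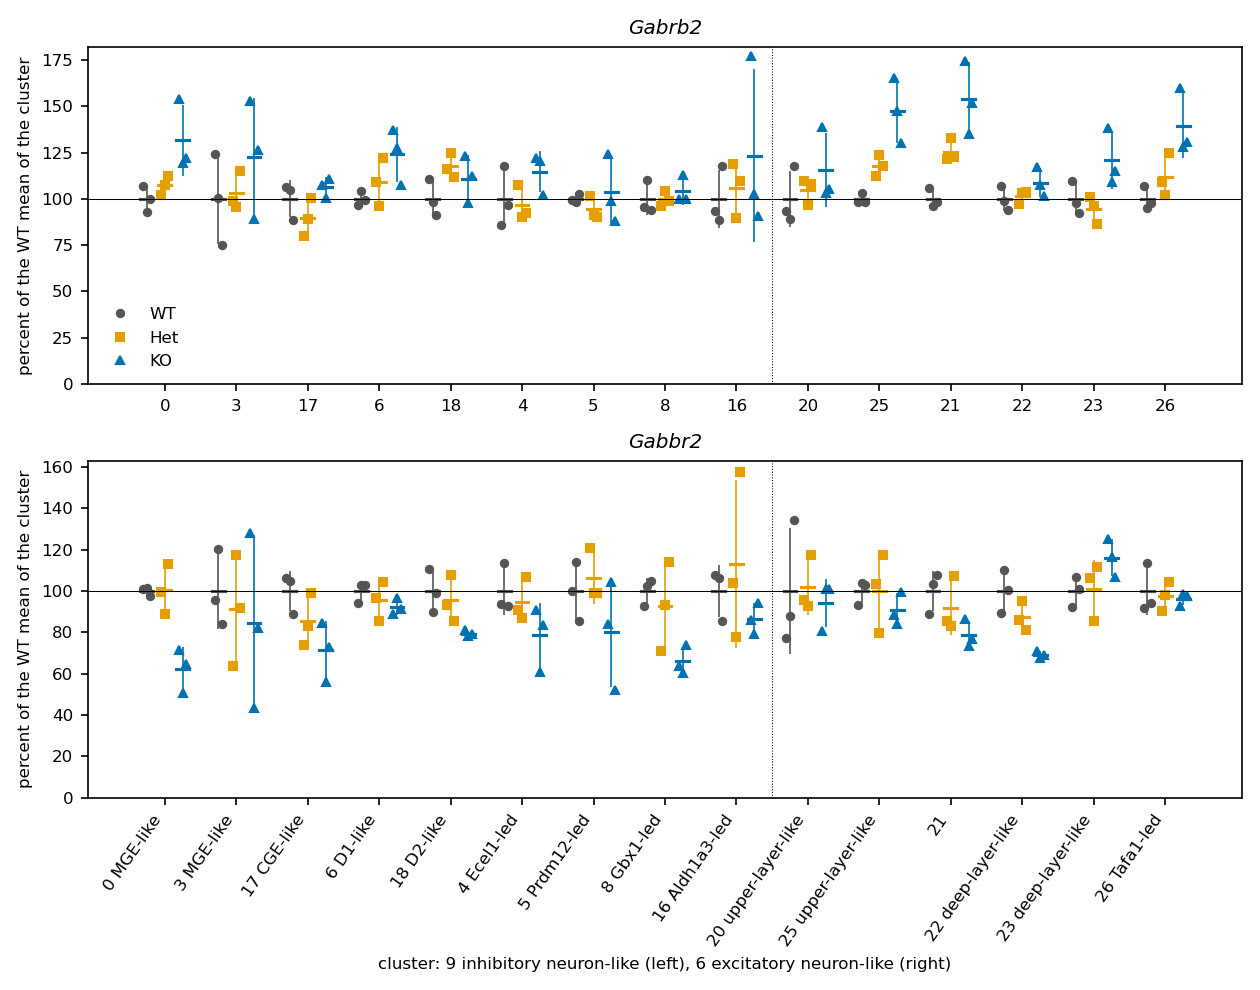
Level of Gabrb2 (top) and Gabbr2 (bottom) in each animal as percent of the WT mean of the same cluster, in the 9 inhibitory (left) and 6 excitatory (right) neuron-like clusters, with the mean and SD of each genotype. Gabrb2 is above WT in KO most clearly in clusters 21, 25 and 26 of the excitatory and cluster 0 of the inhibitory side, and Gabbr2 is below WT most clearly in clusters 0, 8 and 22.

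The remaining calls concerned 5 further members. Gabra3 in cluster 22 measured 57.3, 62.8 and 71.2 CPM (WT), 65.8, 85.3 and 87.0 CPM (Het) and 90.1, 91.4 and 86.8 CPM (KO). KO lay above WT while Het reached into both ranges, and the change was 0.50 (SE 0.12, adjusted p = 0.0368), lost without any one WT or KO animal, and 0.59 (adjusted p = 0.0511) without WT 3. Gabrg3 in cluster 22 measured 27.6, 17.3 and 17.9 CPM (WT), 23.6, 14.2 and 25.5 CPM (Het) and 17.7, 10.5 and 12.8 CPM (KO), where KO 1 reached into the WT range (-0.62, SE 0.24, adjusted p = 0.222; with the block 0.0204, lost without replicate number 1 or 2). Without WT 1 the Gabrg3 change was -0.39 with no block. Glra2 in cluster 0 measured 216, 252 and 242 CPM (WT), 276, 269 and 274 CPM (Het) and 348, 308 and 285 CPM (KO), in that order with no overlap (0.44, SE 0.095, adjusted p = 0.0563; with the block 0.00543, which held without any one replicate number). The fitted change of Glra2 was positive in 9 of 9 inhibitory clusters, from 0.14 to 0.53, and in 4 of 6 excitatory ones. Its highest value, in the D2-like cluster 18, came from 96.4, 89.2 and 91.2 CPM in WT and 158, 116 and 131 CPM in KO (adjusted p = 0.142).

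Gabra5 was scarce in cluster 26, with 12.9, 7.88 and 10.9 CPM in WT 1 to 3, 8.01, 6.41 and 7.62 in Het, and 3.32, 2.39 and 5.91 in KO. KO lay below all others, with a change of -1.28 (SE 0.33, adjusted p = 0.065; with the block 0.0244, lost without replicate number 1 or 2). Its fitted change was negative in all 11 clusters where it was tested. In cluster 22, where Gabra5 was most abundant among excitatory clusters, WT held 36.3 to 41.7 and KO 29.6 to 35.5 CPM (-0.25, SE 0.12, adjusted p = 0.345).

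Genes that make, load and clear GABA gave no call in KO neurons. In inhibitory neuron-like nuclei Gad1 ranged over 434 to 467 CPM for WT, 441 to 494 for Het and 469.7 to 500.5 for KO animals, the last above WT (0.12, SE 0.066, adjusted p = 0.865). Gad2 overlapped fully, at 1195 to 1288 CPM in WT and 1114 to 1360 in KO (0.05, SE 0.085). Slc32a1 was 46.4 to 62.4 CPM in WT and 34.1 to 64.6 in KO (-0.10, SE 0.19). In excitatory neuron-like nuclei the scarce Slc6a11 and Aldh5a1 lay below WT in every KO animal, at 2.53 to 2.91 against 1.48 to 2.36 CPM and at 4.75 to 5.58 against 2.82 to 4.46 CPM. Their changes of -0.54 (SE 0.18) and -0.45 (SE 0.16) did not pass, with adjusted p of 0.216 and 0.237 (0.0788 and 0.0988 with the block). Gphn did not pass in either class, at -0.03 (SE 0.081) and 0.005 (SE 0.086). Of the γ genes, Gabrg1 had a negative fitted change in 7 of 7 inhibitory clusters tested, with 0 calls. The filter on low counts removed Slc6a13 and Slc6a5 in both classes, and Gabrd in the inhibitory one, from the edgeR fit. Outside neurons, the blocked fit called Slc6a13 in mixed microglia and vascular nuclei, 1 of 5 members tested there (0.498% of all genes were called; adjusted p = 0.0349). It rested on KO 1 alone, at 200.6 CPM, with KO 2, KO 3 and all WT animals at 0 and Het 1 at 129.5 CPM.

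In Het animals no member was called in either class, with or without the block. Over all genes 0.0% were called without the block, and 0.0609% and 0.0156% were called with it in the excitatory and the inhibitory class. Of the 293 pairs of member and cluster 0 were called (0.000583% of all pairs), and 12 had an unadjusted p under 0.05 (3.46% of all pairs), with 0 of 296 called in the blocked fit (0.00675% of all pairs) and 21 at that p (5.29%). DESeq2 called 0 in both classes. All 3 Het animals were outside the WT range for 0 of 24 members in excitatory (9.73% of all genes tested) and 1 of 23 in inhibitory neuron-like nuclei (7.3%), namely Glra2. Fitted changes of members ran from -0.34 to 0.27 in excitatory and from -0.26 to 0.17 in inhibitory neuron-like nuclei. For members called in KO, the fitted Het change of Gabrb2 was 0.35 (SE 0.091, adjusted p = 1.0; 0.157 with the block) in cluster 21 and 0.26 (SE 0.10) in cluster 25, and that of Glra2 was 0.17 (SE 0.080) in inhibitory neuron-like nuclei and 0.23 (SE 0.095) in cluster 0. The change of Gabbr2 was -0.02 (SE 0.087) in inhibitory neuron-like nuclei and 0.03 (SE 0.13) in cluster 0. The Het and KO comparisons share the same 3 WT animals.

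A list of 41 further genes of GABA, glycine and chloride transport was read alongside. In KO excitatory neuron-like nuclei 34 were tested, and of those reported here 1 passed without the block (1.02% of all genes were called). Slc12a7, the chloride exporter KCC4, measured 9.21, 8.98 and 8.88 CPM (WT), 10.8, 9.90 and 10.8 CPM (Het) and 11.2, 13.1 and 12.2 CPM (KO), with no overlap between genotypes and Het in the middle (0.46, SE 0.094, adjusted p = 0.0386). With the block 35 were tested and 3 were higher, beside 3.27% of all genes. This added Kctd16, an auxiliary subunit of GABA-B receptors (log2 change 0.40), and Gldc of the glycine cleavage system (7.72 ± 0.894 CPM in WT, 10.4 ± 1.39 in KO) among the higher ones. The block also added Slc6a6, a taurine transporter (100.7 ± 6.72 CPM in WT, 84.6 ± 7.83 in KO), and Shisa7, an auxiliary GABA-A subunit (49.9 ± 6.84 and 40.7 ± 1.62), among the lower ones. Over all genes 3.0% were lower in that fit. In KO inhibitory neuron-like nuclei 0 of 34 were called with or without the block, where 0.717% and 0.0375% of all genes were. In Het animals 0 were called in both classes, beside the shares of all genes given above.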

How the data were processed

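Forebrain nuclei of 9 embryos (3 WT, 3 Het, 3 KO), each in 2 runs (18 libraries), were analysed. The authors mapped reads to mm10 with the kit maker's pipeline and deposited expected counts (UMIs, estimated so that some are not whole) per gene and nucleus. Which annotation release was used, and whether strand was, the sources used here do not say. The submitters' processing notes name Seurat 4.3.0, Scanpy 1.12.0 and DESeq2 1.38.3.

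Barcodes had to hold 800 to 6000 UMIs and 300 to 3000 genes, with no more than 1% of UMIs mitochondrial and log(genes)/log(UMIs) no less than 0.9. Those that passed removal of the 5% with the highest doublet scores were kept (194590 of 261143 barcodes, with a median of 2519 UMIs). They were clustered with scanpy 1.11.5 on variable genes without the members. Counts were summed per animal and class, rounded to whole numbers, and tested with edgeR 4.0.16 (quasi-likelihood, TMM, filterByExpr, all 9 animals) against WT, with Benjamini-Hochberg adjustment within each class or cluster. DESeq2 1.42.0 was an alternative, with others listed in the closing section. Scripts were tested on simulated data. Replicate numbers came from the titles, and deviations from the genotype means correlated in every same-numbered pair (0.152 to 0.393 in excitatory and 0.16 to 0.391 in inhibitory neuron-like nuclei, against -0.279 to 0.068 and -0.303 to 0.034 for different numbers), so the numbers were used as a block. Deviations cancel within a genotype, so positive values for same numbers force lower ones for different numbers. The gap between them is therefore no separate evidence. All 26 members are reported, with full values for those called in a neuron class or cluster with or without the block. The members and lists were chosen with earlier results of these data known. Litters are not tied to samples by the labels. A result on one gene of the wider pathway list is not reported here.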

Additional observations from a re-analysis of the deposited data

How the results depend on the processing

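Without the replicate block, 0 members were called in KO excitatory and 0 in KO inhibitory neuron-like nuclei. The replicate block gave 4 and 2 (6.27% and 0.717% of all genes were called), no filter on low counts 3 and 1 (1.83% and 0.255%), and run 2 alone with the replicate block, added after seeing the data, 3 and 1 (6.0% and 0.714%), while run 1 alone with the replicate block, added with it, gave 0 and 0 (0.956% and 0.0416%). The replicate block without replicate 1, 2 or 3, also added then, gave 2, 2 and 4 excitatory calls (2.06%, 2.07% and 7.14% of all genes) and 1, 0 and 1 inhibitory calls (0.382%, 0.0689% and 0.487%). Leaving out each animal without the block gave 0 to 1 (0.246% to 1.59%) and 0 (0.0% to 0.0207%). Of 6 member and cluster pairs called in KO, where 0.481% of all gene and cluster pairs were called, no filter on low counts and the replicate block each gave 13 (0.415% and 1.51%), and the replicate block without replicate 1, 2 or 3 gave 10, 4 and 16 (0.899%, 0.544% and 1.37%), while leaving out each animal gave 1 to 7 (0.183% to 0.512%), with 1 without WT 2 or WT 3, 2 without KO 2 and 3 without WT 1. For members whose KO change differed between classes (0), no filter gave 3 (0.658% of all genes, beside 0.109%) and leaving out each animal 0 to 2 (0.0193% to 0.136%). In each case the cause was not tested. Beyond these, the replicate block added 1 call, of Slc6a13 in mixed microglia and vascular nuclei, and changed no other call of a member. The genes called in KO in a neuron class or cluster, with or without the block, were refitted there under the other settings. Of these 339 values, 267 kept their direction and side of the threshold, 27 lost and 45 gained the call, and 0 reversed. The gains include the blocked calls themselves. These genes were picked for their change in the same animals, so the lack of reversals is a description and no separate evidence. Among members of at least 5 CPM, 18 excitatory and 21 inhibitory, WT levels moved by up to 1.52 (Gabra4) and 1.51 times (Slc12a5) in run 1 alone. At this depth the filter on low counts removed Slc6a13 and Slc6a5 from the edgeR fit in both neuron classes, while DESeq2 and the fit with no filter tested all 26 members.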

Other observations

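Clusters that matched no marker list held high levels of several members. In cluster 2, led by Sim1 (4151 nuclei), the median animal had 937 CPM of Gabra2 (747 to 1055), 249 CPM of Gabbr2 and 418 CPM of Glra2. In cluster 7, led by Car10 (5634 nuclei), the median animal had 503 CPM of Gabrb1, 497 CPM of Gabrg3 and 127 CPM of Slc12a5 (74.8 to 148). Its Gad2 level had a median of 69.1 CPM and reached 444 CPM in Het 1. In cluster 27, led by Rspo2 (1128 nuclei), Gabra2 stood at 878 CPM and Gabrb1 at 391 CPM in the median animal.

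A diencephalic neuron-like cluster of 734 nuclei came from Het 1 alone and entered no comparison. It held 549 CPM of Glra2, 115 CPM of Glra3, 647 CPM of Gabrb1 and 656 CPM of Gabra2. Within the compared classes, the summed level of 9 diencephalic marker genes was also above WT in Het 1. In excitatory neuron-like nuclei it was 57.9 CPM in Het 1 and 50.1 in KO 1, against 33.4 to 39.2 in WT. In inhibitory ones it was 24.4 and 16.2 CPM, against 9.31 to 11.5 in WT. The part of this in the comparisons was not tested.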
